A study of Arabidopsis thaliana with 27 samples.

Results

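The comparison described here sets hy5-215 seedlings of Arabidopsis thaliana directly against vil1-1 seedlings at ZT0, and rests on 6 of the 27 RNA-seq libraries of the series, 3 of each mutant. Both groups are whole seedlings, which per the labels had spent about a week on MS medium at 22 °C under a short photoperiod (8 h of light, then 16 h of dark) and were taken at ZT0, when the night ends. The hy5-215 line carries a mutant allele of HY5 and the vil1-1 line a mutant allele of VIL1; each is 1 mutant line, and neither carries the cop1-4 allele that other lines of the series carry. Col-0, the wild type of the study, has 3 libraries at ZT0 and served as the reference for both mutants. The labels say neither whether plants were pooled nor whether the 3 samples of a group were grown apart; the p-values below therefore rest on a spread between samples that may be technical only. The hy5-215 line was sampled at ZT0 alone, and nothing in the labels names a batch, so a batch of those libraries and the genotype cannot be told apart.

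HY5 is a bZIP transcription factor that promotes photomorphogenesis, the form of growth seedlings take in the light, and it binds ACGT-containing elements such as the G-box in promoters. COP1, an E3 ubiquitin ligase, marks HY5 for degradation in the dark, so that HY5 builds up in the light. VIL1 (synonym VRN5) carries a PHD finger and works with a Polycomb complex, a writer of repressive histone marks, and it is best known for the cold-induced silencing of the flowering repressor FLC. The hy5-215 line is thus mutant in a light-dependent regulator and the vil1-1 line in a chromatin regulator, and setting them side by side shows which genes stand apart between them.

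Promoter sequences of 4 genes on which the results turn are given here because each holds an ACGT-containing element. They are RefSeq sequences on TAIR10.1, 250 bases that end just before the annotated start, written 5′ to 3′ on the gene's strand. Only the element named for each gene is in capitals. Other runs of ACGT, as in the CHS sequence, are left in lower case. CHS, the chalcone synthase gene, encodes the entry enzyme of the flavonoid pathway (AT5G13930, chr5:4488226-4488475, plus strand); it has a G-box whose first base lies 233 bases before the start. HYH, the closest homolog of HY5 (AT3G17609, chr3:6023594-6023843, plus strand), has a Z-box 56 bases before the start. LHCA4, a light-harvesting protein of photosystem I (AT3G47470, chr3:17495034-17495283, minus strand), and IAA19, an auxin-induced repressor of auxin response (AT3G15540, chr3:5263751-5264000, plus strand), have G-boxes 88 and 70 bases before the start. CHS and HYH were lower in hy5-215, and LHCA4 and IAA19 were higher.
CHS: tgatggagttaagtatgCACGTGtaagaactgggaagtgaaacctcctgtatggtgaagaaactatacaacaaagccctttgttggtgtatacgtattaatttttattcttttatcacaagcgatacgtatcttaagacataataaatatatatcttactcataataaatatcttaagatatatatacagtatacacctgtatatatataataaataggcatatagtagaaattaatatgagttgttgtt
HYH: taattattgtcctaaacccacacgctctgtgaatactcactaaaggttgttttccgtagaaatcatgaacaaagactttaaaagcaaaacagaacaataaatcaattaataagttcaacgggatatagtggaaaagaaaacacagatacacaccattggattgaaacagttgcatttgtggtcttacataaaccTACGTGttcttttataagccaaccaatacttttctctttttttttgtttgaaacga
LHCA4: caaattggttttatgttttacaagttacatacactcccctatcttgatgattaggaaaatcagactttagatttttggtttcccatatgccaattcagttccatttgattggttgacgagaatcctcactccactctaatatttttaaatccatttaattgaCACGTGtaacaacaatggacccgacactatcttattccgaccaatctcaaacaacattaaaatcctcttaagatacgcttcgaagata
IAA19: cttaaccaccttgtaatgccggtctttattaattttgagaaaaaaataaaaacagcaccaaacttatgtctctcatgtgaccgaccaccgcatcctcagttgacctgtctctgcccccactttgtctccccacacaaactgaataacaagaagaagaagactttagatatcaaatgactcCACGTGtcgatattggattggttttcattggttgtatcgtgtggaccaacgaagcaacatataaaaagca

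The 9 libraries of the 3 groups held 19.7 to 25.6 M reads in genes. In hy5-215, 2.16 to 2.89% of reads lay outside genes, against 0.854 to 1.01% in vil1-1 and 0.979 to 1.12% in Col-0, and 4.32 to 5.42% were placed at several sites, against 2.84 to 3.01% and 3.18 to 3.54%. Reads in annotated pseudogenes summed to 12696 to 14624 CPM in hy5-215, 1889 to 1937 in vil1-1 and 1834 to 1956 in Col-0, CPM being the number of reads scaled to a common library size. A total of 377 genes passed the filter on low counts only through the hy5-215 libraries, 223 of them pseudogenes; 331 of them were called higher and 0 lower, a direction that the filter itself favours, and counts that rest on them are given with and without them. The SADHU elements SADHU3-1 and SADHU8-1 are examples, with means of 11.7 ± 4.02 and 35.0 ± 1.58 CPM (SD, n = 3) in hy5-215 and 0 and 1 reads in all over the vil1-1 libraries: at least 337-fold higher for the former and a count ratio of 2947 (95% exact interval 528 to 116446) for the latter. The part of these features in the results below was not tested.

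Of the targeted genes, VIL1 (AT3G24440) was the one whose counts separated the groups strongly. VIL1 stood at 16.8, 14.9 and 14.8 CPM in the hy5-215 libraries and at 5.08, 4.79 and 5.48 in vil1-1, with Col-0 at 16.3 ± 0.343. The log2 change, here and below hy5-215 minus vil1-1 unless another pair is named, was 1.60 ± 0.11 (SE, edgeR adjusted p = 2.4e-16). Genes said to rise or fall in hy5-215 did so relative to vil1-1, not Col-0, unless another pair is named. HY5 (AT5G11260) stood at 14.6, 14.4 and 14.5 CPM in hy5-215 and at 19.5, 20.7 and 16.6 in vil1-1, a log2 change of −0.38 ± 0.09 (edgeR adjusted p = 0.00058). The HY5 groups do not overlap, but the transcript was still read in hy5-215, so its count is no test of that label. COP1 (AT2G32950) was slightly lower in hy5-215, at 28.7 ± 0.367 against 34.2 ± 1.52 CPM (log2 −0.25 ± 0.07, edgeR adjusted p = 0.0052).

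Across the genome, 8531 of 21448 genes tested were called at an adjusted p under 0.05, or 39.8%: 4453 (20.8%) were higher and 4078 (19%) lower in hy5-215. Most of the calls were small, with 63.7% of them under 1.5-fold, and the median log2 change over all genes tested was 0.01. At least 2-fold apart were 1605 genes (7.48% of those tested), 1013 higher and 592 lower. Without the 377 genes that passed only through hy5-215, 682 of the higher genes and all 592 of the lower remained. Among protein-coding genes 4154 were higher and 4000 lower of 20702; among pseudogenes 253 were higher and 27 lower of 384, or 35 and 27 of the 161 that passed without the hy5-215 libraries. Among named genes averaging 5 CPM or more, the 10 that rose most were SADHU3-1, SADHU8-1, OFP9, SADHU6-1, RE2, the seed storage protein gene CRC, CYP82C2, PORA, GolS2 and FTM1, of which SADHU3-1, SADHU8-1, OFP9, SADHU6-1 and RE2 passed the filter only through hy5-215. The 10 that fell most were IRT1, M17, CYP82C4, FRO2, COR27, SDR1, CHS, SNZ, XTH25 and BGLU19. CYP82C2, a cytochrome P450, stood at 36.7, 48.1 and 37 CPM in hy5-215 and at 0.779, 0.78 and 2.2 in vil1-1 (log2 5.01 ± 0.23, edgeR adjusted p = 2.7e-15). Col-0 was at 4.42 ± 0.647. Of the 8531 genes called, 8013 had replicates that do not overlap between the mutants. The 10 that rose most and the 10 that fell most were chosen with that as a condition. For them it is no further support, here or below. GolS2, a galactinol synthase, was at 9.8 ± 2.59 against 0.886 ± 0.223 CPM, and XTH25, a xyloglucan enzyme, at 2.78 ± 0.199 against 11.8 ± 1.17 (log2 3.45 and −2.09, edgeR adjusted p = 2.3e-13 and 5.4e-12).

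**Figure D1:**
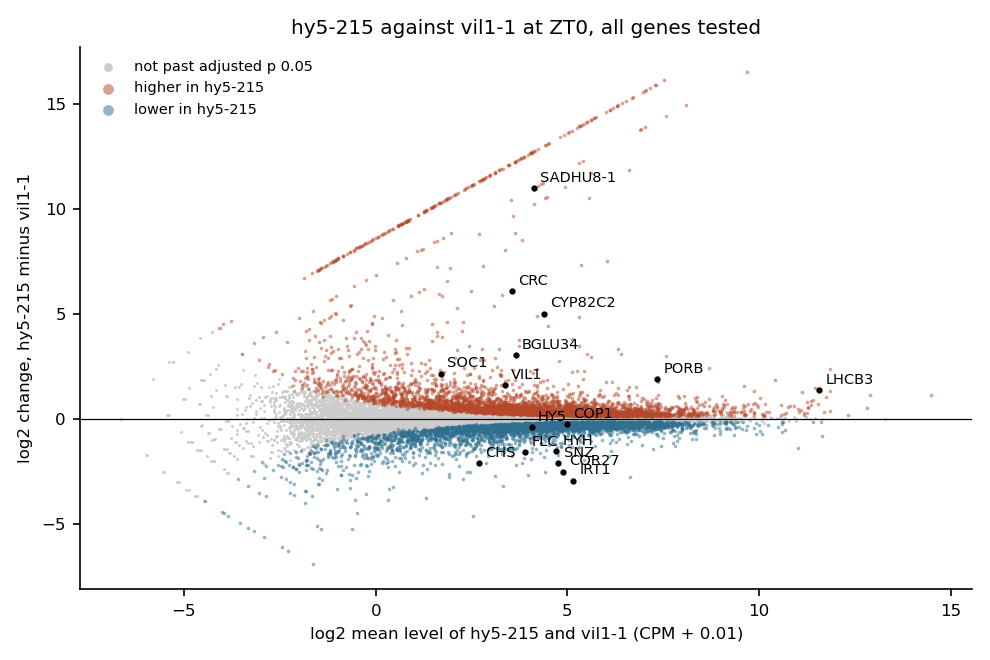
Each point is a gene tested, with the log2 mean level of hy5-215 and vil1-1 (CPM + 0.01) on the x axis and the log2 change on the y axis; colours mark the 4453 genes higher and the 4078 lower in hy5-215 at an adjusted p under 0.05. The rising line of points at the top is made of genes with 0 reads in vil1-1, whose fitted change depends on the prior count; among the labelled genes LHCB3, PORB and BGLU34 lie above 0 and IRT1, COR27 and CHS below.

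HYH and COR27, both regulators of light responses, were lower in hy5-215. HYH, which shares targets with HY5, stood at 12.1, 11.8 and 15.8 CPM in hy5-215 and at 37.4, 42.6 and 36.2 in vil1-1. Every hy5-215 library lay below every vil1-1 library, and the log2 change was −1.55 ± 0.08 (edgeR adjusted p = 3.0e-19). COR27, a protein of the clock and cold network that also takes part in light signalling, stood at 8.20, 8.96 and 9.11 CPM against 46.6, 61.3 and 41.9, a log2 change of −2.51 ± 0.11 (edgeR adjusted p = 7.0e-16). For COR27 both mutants had left the wild type, at 34.2 ± 2.04 CPM, in opposite directions, with a log2 difference of −1.97 in hy5-215 and 0.54 in vil1-1 (edgeR adjusted p = 2.2e-13 for the former, 0.00026 for the latter).

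Over the list of light signalling regulators, 17 of 35 tested members were lower and 5 higher, against 19% and 20.8% over all genes, with a median log2 change of −0.19. RUP2, a repressor of the UV-B receptor UVR8, fell by 0.67 on the log2 scale (edgeR adjusted p = 3.5e-08). The COP1 partners SPA1, SPA3 and SPA4 fell by 0.39, 0.34 and 0.45 (edgeR adjusted p = 3.7e-08, 1.7e-06 and 3.4e-06), while SPA2 was at −0.12 (edgeR adjusted p = 0.12). GLK2 and GLK1, transcription factors of chloroplast development, fell by 0.42 and 0.35, and ELIP2, an early light-induced protein, by 1.56 (edgeR adjusted p = 7.7e-08, 0.0037 and 7.5e-05). Against Col-0, hy5-215 passed the test for GLK2 (−0.27, edgeR adjusted p = 0.00022) but not for GLK1 (−0.08, edgeR adjusted p = 0.55). ELIP2 was above Col-0 in vil1-1 (2.43, edgeR adjusted p = 7.1e-06) and did not pass the test in hy5-215 (0.87, edgeR adjusted p = 0.099). The list members that rose were the photoreceptor genes PHYA, PHYB, CRY1 and CRY2, and BBX28, a B-box protein that restrains photomorphogenesis. PHYA, the far-red receptor, moved most of these, at 617, 671 and 669 CPM against 453, 432 and 424 (log2 0.58 ± 0.06, edgeR adjusted p = 7.1e-11). Its hy5-215 libraries all lay above its vil1-1 libraries. BBX28 rose by 0.48, CRY1 by 0.16, and PHYB and CRY2 by 0.15 each (edgeR adjusted p = 1.0e-09, 0.0072, 0.0077 and 0.023); without hy5-215 replicate 2 the CRY1 value was 0.10 (edgeR adjusted p = 0.12) and the number of higher members was 3.

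Flavonoid genes moved in both directions, with the entry enzyme and the flavonol regulator lower in hy5-215. CHS stood at 2.70, 2.66 and 1.86 CPM in hy5-215 and at 9.11, 10.5 and 12 in vil1-1, and no library of one group reached the other. The log2 change was −2.12 ± 0.29 (edgeR adjusted p = 8.2e-06), and since vil1-1 differed from Col-0 by −0.11 (edgeR adjusted p = 0.85), the distance lay on the hy5-215 side. MYB12, an activator of flavonol synthesis, was at 0.159 ± 0.0977 against 1.05 ± 0.181 CPM (log2 −2.62 ± 0.42, edgeR adjusted p = 2.5e-06). UGT78D2, which glucosylates flavonoids, and PAL2, at the head of the phenylpropanoid pathway, fell by 0.81 and 0.47 (edgeR adjusted p = 2.2e-10 and 3.8e-09), and FLS1, flavonol synthase, by 1.12 (edgeR adjusted p = 0.024). Neither mutant passed the test against Col-0 for FLS1, with −0.25 in hy5-215 and 0.88 in vil1-1 (edgeR adjusted p = 0.7 and 0.15). In all, 7 of 21 tested members were lower and 3 higher (47.6% called, against 39.8% of all genes). The higher members were DFR, the reductase that leads towards anthocyanins, at 0.452 ± 0.0453 against 0.106 ± 0.0306 CPM, AT4G14090 at 1.53 ± 0.133 against 0.414 ± 0.0534, and C4H, which rose by 0.17 (edgeR adjusted p = 0.0026, 4.5e-07 and 0.025). The C4H call was lost without vil1-1 replicate 1, vil1-1 replicate 2 or hy5-215 replicate 2 (edgeR adjusted p = 0.13, 0.055 and 0.18). Against Col-0, vil1-1 was lower for AT4G14090 and C4H, with −1.43 and −0.26 (edgeR adjusted p = 0.00047 and 0.0035). For these genes hy5-215 did not pass that test, with 0.44 and −0.09 (edgeR adjusted p = 0.13 and 0.27). DFR was above Col-0 in hy5-215 (3.01, edgeR adjusted p = 0.00025) and did not pass in vil1-1 (0.97, edgeR adjusted p = 0.58). PAP2 and TT8 had too few reads to test. SDR1, a short-chain dehydrogenase outside the list and among the genes that fell most, stood at 3.71, 5.23 and 4.62 CPM against 19.1, 20.9 and 22.2 (log2 −2.21 ± 0.10, edgeR adjusted p = 3.2e-22). CHS, SDR1 and AT4G14090 overlap another annotated gene on the other strand. So do SPA3, SPA4 and BGLU19 above and LHCA4, LHCB3, RCA, PORB, PORC, PIF1, PIF7, XTH15, CKX5, FLC, SPL3, CLF, VIN3, RVE1, LNK1, LNK2, LKP2, PYK10, OLE2, FER1, BHLH38, BHLH101, TPS5, NPR1, BSL1, CDKB2;1 and CDKB1;1 below, while CHLD overlaps a gene on its own strand. No source used here gives the strand setting of the counting, so reads of a gene and an antisense neighbour cannot be told apart.

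**Figure D2:**
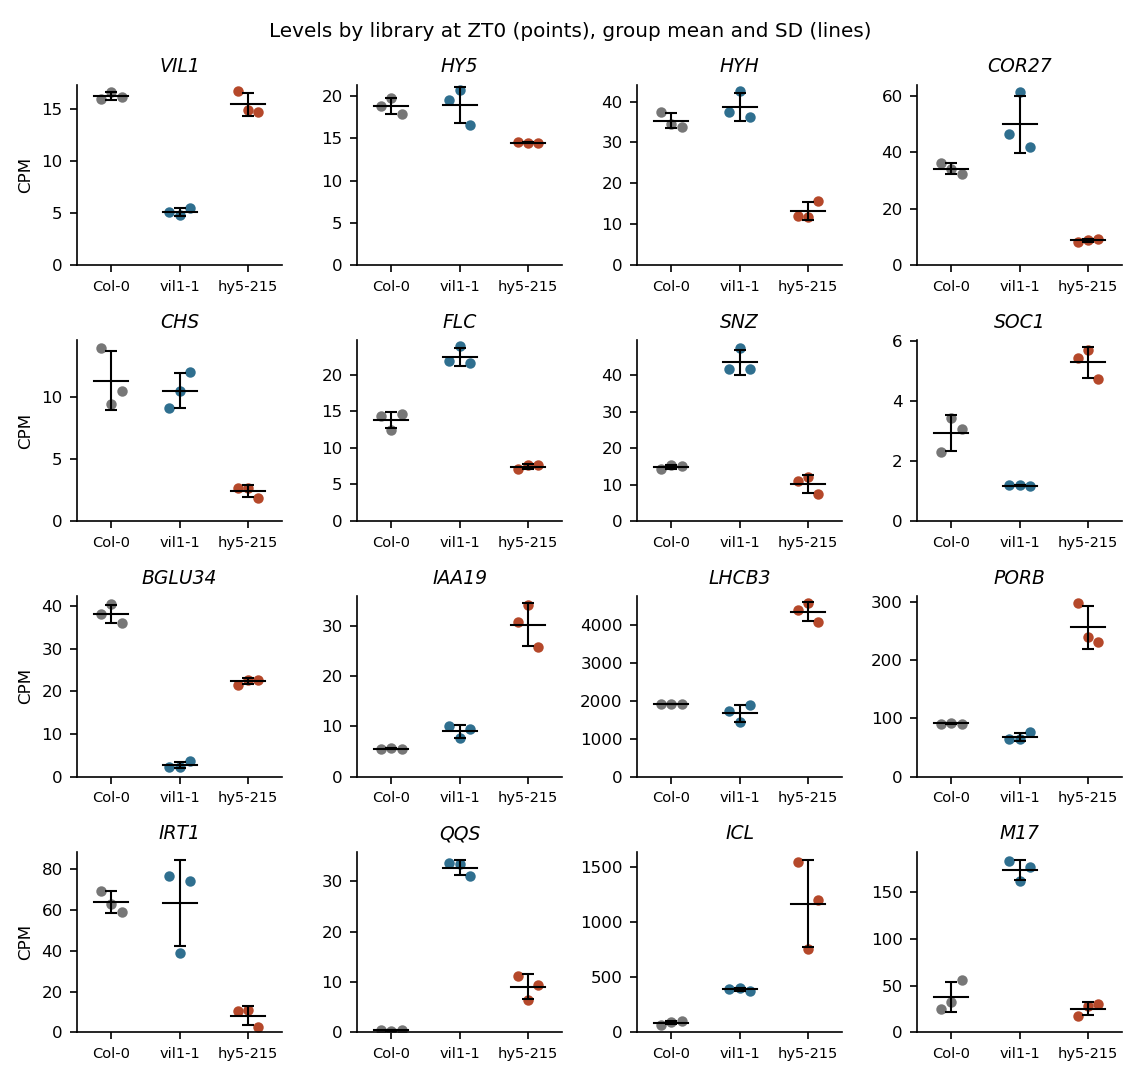
Levels in CPM (linear axes from 0) of 16 genes in each ZT0 library of Col-0, vil1-1 and hy5-215; points are libraries and lines are the group mean and SD, n = 3. All hy5-215 points lie below all vil1-1 points for HY5, HYH, COR27, CHS, FLC, SNZ, IRT1, QQS and M17, and above them for VIL1, SOC1, BGLU34, IAA19, LHCB3, PORB and ICL.

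Genes of light harvesting and photosynthesis stood higher in hy5-215. Of the 19 members of the photosynthesis list, 18 were higher and 0 lower, against 20.8% and 19% of all genes. The median log2 change was 0.69 against 0.01 over all genes. The members' summed level was 68306 to 73539 CPM in hy5-215, 44658 to 48441 in vil1-1 and 47355 to 49467 in Col-0. LHCB3, a light-harvesting protein of photosystem II, stood at 4393, 4597 and 4086 CPM against 1723, 1432 and 1882, and LHCA4 at 5215, 5594 and 4967 against 2165, 1921 and 2249. The groups were well apart for both, with log2 changes of 1.38 ± 0.09 and 1.32 ± 0.07 (edgeR adjusted p = 1.9e-12 and 6.0e-19). LHCA1 rose by 1.26, LHCB5 by 1.03 and LHCB4.1 by 0.89 (edgeR adjusted p = 3.0e-20, 5.3e-17 and 3.6e-16). The smallest rises were those of RCA, the activase of Rubisco, at 0.20 (edgeR adjusted p = 0.0046), and of LHCB2.1 at 0.34 (edgeR adjusted p = 0.00047). RBCS1A, a Rubisco small subunit gene, was the member not called, at 9817 ± 343 against 9996 ± 295 CPM (log2 −0.03, edgeR adjusted p = 0.77). Against Col-0, the median change of the list was 0.69 in hy5-215 and −0.05 in vil1-1. These are whole seedlings, so that a larger share of green cells and more RNA per cell cannot be told apart, here and in the lists below. LHCB genes have near-identical copies among which the counting could divide reads.

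Chlorophyll synthesis genes followed in the same direction but by less, 8 higher and 1 lower of 12, with a median of 0.29. Over all genes 20.8% were higher and 19% lower. The protochlorophyllide oxidoreductases, which carry out the light-dependent step, moved most. PORB stood at 298, 239 and 231 CPM against 64.4, 64.8 and 76.7 (log2 1.90 ± 0.08, edgeR adjusted p = 1.0e-19). PORA, the form typical of dark-grown seedlings, stood at 99.9, 39.2 and 54.9 CPM against 1.22, 0.854 and 11.8 (log2 3.82 ± 0.59, edgeR adjusted p = 0.0001). The PORA groups do not overlap, but replicates within each were far apart; Col-0 was at 0.481 ± 0.00656. PORC rose by 0.83, CHLD, a subunit of magnesium chelatase, by 0.46, and HEMA1, at the start of the pathway, by 0.35 (edgeR adjusted p = 8.4e-10, 1.2e-09 and 6.0e-07). CHLG, chlorophyll synthase at its end, fell by 0.39 (edgeR adjusted p = 1.4e-07).

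Genes of shade response and elongation growth, many of them targets of the PHYTOCHROME INTERACTING FACTORs (PIFs), were higher in hy5-215 in 20 of 31 cases and lower in 2. Over all genes 20.8% were higher and 19% lower. The list's median log2 change was 0.57. IAA19 stood at 30.8, 34.2 and 25.8 CPM against 10, 7.61 and 9.42 (log2 1.74 ± 0.14, edgeR adjusted p = 1.6e-12). YUC8, an enzyme of auxin synthesis, stood at 26.4, 31.2 and 26.1 CPM against 11, 7.95 and 8.73 (log2 1.59 ± 0.13, edgeR adjusted p = 1.6e-13), and IAA29 at 58.2, 63.1 and 51.5 against 26.1, 22.2 and 21.8 (log2 1.30 ± 0.09, edgeR adjusted p = 3.3e-16). For each of the 3 every hy5-215 library lay above every vil1-1 library. Among the PIF genes themselves, PIF3, PIF4 and PIF1 rose by 0.58, 0.40 and 0.20 (edgeR adjusted p = 1.2e-09, 9.1e-05 and 0.0068), while PIF5 was at −0.05 and PIF7 at 0.25 (edgeR adjusted p = 0.4 and 0.073). PIL1, a shade-induced bHLH protein, rose by 1.19 (edgeR adjusted p = 1.7e-06), and the shade marker ATHB2 was at 0.03 (edgeR adjusted p = 0.83).

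Several genes of this list were above Col-0 in both mutants. ST2A, a sulfotransferase that acts on hydroxyjasmonate, stood at 149, 200 and 144 CPM in hy5-215, at 64.2, 56.6 and 53.2 in vil1-1 and at 22.6 ± 0.896 in Col-0 (log2 1.5 ± 0.12, edgeR adjusted p = 5.2e-09). XTH15, a cell-wall xyloglucan enzyme, stood at 286, 384 and 407, at 192, 151 and 168, and at 70.3 ± 5.81 (log2 1.07 ± 0.10, edgeR adjusted p = 5.1e-08). In both genes the groups formed 3 separate levels, with vil1-1 between. The list's median against Col-0 was 0.77 in hy5-215 and 0.29 in vil1-1; the same Col-0 libraries serve both values. CKX5, which degrades cytokinin, had the opposite order, at 11.2, 12.6 and 10.5 CPM in hy5-215 and 23.3, 17.3 and 23.1 in vil1-1, with Col-0 at 5.24 ± 0.752 (log2 −0.89 ± 0.12, edgeR adjusted p = 9.6e-08). The homeobox gene HAT1 was the other member that fell, by 0.33 (edgeR adjusted p = 7.0e-05).

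**Figure D3:**
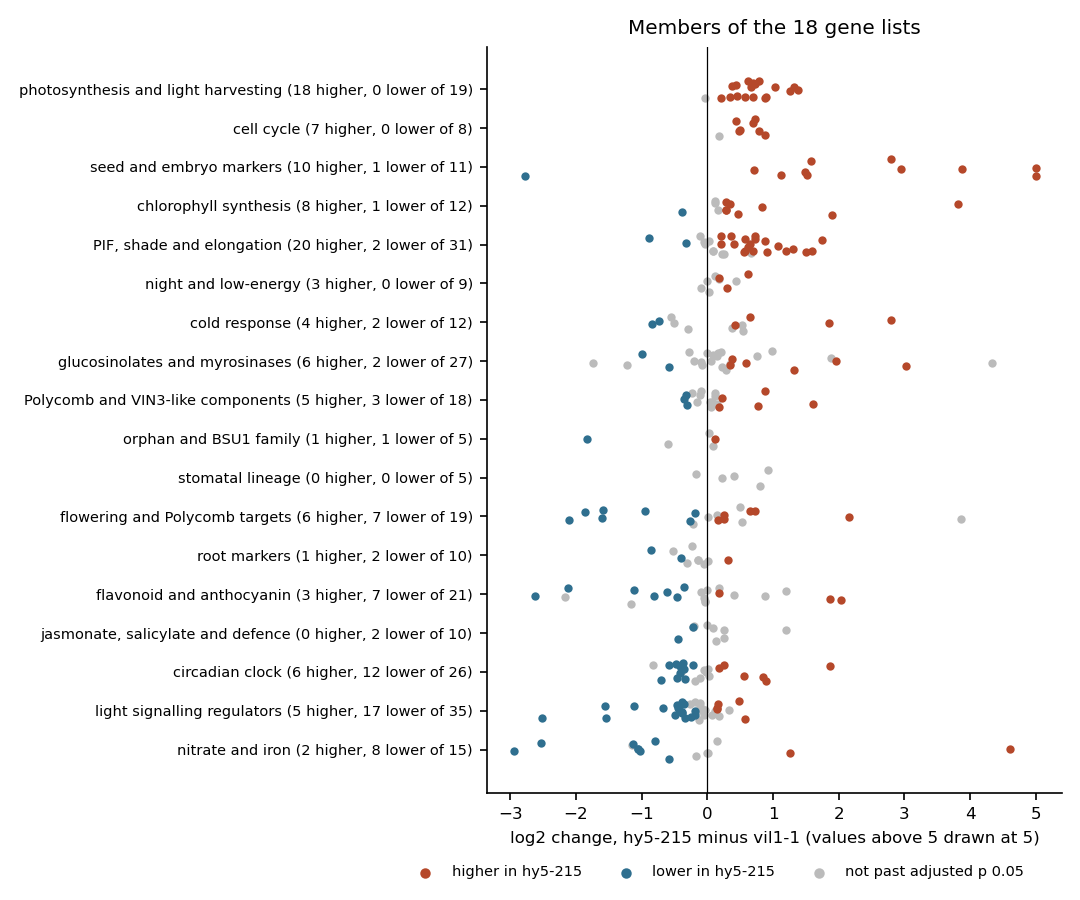
Log2 change of every tested member of the 18 gene lists, hy5-215 minus vil1-1, with values above 5 drawn at 5; colours mark members called higher, lower or neither. Photosynthesis (18 of 19 higher) and cell cycle members (7 of 8 higher) lie to the right of 0, and light signalling regulators (17 of 35 lower) and nitrate and iron members (8 of 15 lower) mostly to the left.

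Flowering regulators showed changes on the vil1-1 side as well. FLC (AT5G10140), the repressor of flowering that Polycomb silences, stood at 7.05, 7.61 and 7.6 CPM in hy5-215 and at 21.9, 23.9 and 21.6 in vil1-1 (log2 −1.60 ± 0.10, edgeR adjusted p = 1.4e-17). Col-0 lay between, at 13.8 ± 1.16, with log2 differences from it of −0.90 in hy5-215 and 0.70 in vil1-1 (edgeR adjusted p = 9.6e-10 and 2.1e-07). The FLC relatives MAF4 and MAF5 fell by 1.59 and 1.87 (edgeR adjusted p = 9.6e-10 and 2.3e-07), and for both hy5-215 did not pass the test against Col-0 (−0.31 and −0.22, edgeR adjusted p = 0.24 and 0.63). MAF2 and MAF3, from the same cluster, were at 0.01 and 0.14 (edgeR adjusted p = 0.97 and 0.26). SNZ, an AP2-type repressor of flowering, stood at 11, 12 and 7.34 CPM against 41.7, 47.6 and 41.6 (log2 −2.11 ± 0.10, edgeR adjusted p = 5.1e-20). Col-0 was at 14.9 ± 0.55, with log2 differences from it of 1.55 in vil1-1 and −0.56 in hy5-215 (edgeR adjusted p = 1.8e-15 and 6.0e-05).

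SOC1, a promoter of flowering that FLC represses, ran the other way. It stood at 5.43, 5.69 and 4.71 CPM in hy5-215 and at 1.18, 1.19 and 1.15 in vil1-1, with Col-0 between at 2.93 ± 0.593 (log2 2.16 ± 0.17, edgeR adjusted p = 2.8e-14). The meristem homeobox genes KNAT1 and STM rose by 0.72 and 0.65 (edgeR adjusted p = 5.3e-10 and 0.0016), and SPL3, a promoter of the floral transition, fell by 0.95 (edgeR adjusted p = 1.9e-05). Of the 19 members tested, 7 were lower and 6 higher (68.4% called, against 39.8% of all genes); TSF, AGL19, AP1, FUL, LFY and AG had too few reads to test.

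The machinery of Polycomb silencing itself differed little. Of 18 tested components 5 were higher and 3 lower (44.4%, against 39.8% of all genes), VIL1 among the higher, with a median of 0.06; 3 rather than 5 were higher without hy5-215 replicate 1, hy5-215 replicate 3 or vil1-1 replicate 1. EMF1, which acts with Polycomb at silenced genes, stood at 38.7, 39.7 and 37.6 CPM against 22.7, 23.9 and 21.5 (log2 0.77 ± 0.07, edgeR adjusted p = 2.2e-11). Col-0 was at 34.9 ± 0.486; on the log2 scale vil1-1 differed from it by −0.62 (edgeR adjusted p = 5.0e-08) and hy5-215 by 0.15 (edgeR adjusted p = 0.097). VEL1, a relative of VIL1 in the VIN3 family, and the methyltransferase CLF fell by 0.33 and 0.35 (edgeR adjusted p = 8.9e-07 and 7.0e-06).

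Of 26 circadian clock genes 12 were lower in hy5-215 and 6 higher, against 19% and 20.8% of all genes, with a median of −0.28. The dawn MYB-like factors LHY, CCA1, RVE8, RVE4 and RVE1 fell by 0.42, 0.39, 0.46, 0.42 and 0.71 (edgeR adjusted p = 4.7e-06, 1.4e-06, 1.1e-07, 1.7e-07 and 1.2e-09). Their relative AT5G52660 was at −0.11 (edgeR adjusted p = 0.36). Of the morning-phased co-regulators, LNK1 rose by 0.26 and LNK2 fell by 0.22 (edgeR adjusted p = 0.00054 and 0.0055). The lower members also included ZTL, LKP2 and CHE, by 0.35, 0.37 and 0.34 (edgeR adjusted p = 5.3e-06, 6.1e-06 and 2.7e-05). LHY stood at 540, 586 and 563 CPM against 757, 769 and 737, with no overlap. PRR7, GI and PRR5, which follow later in the day, rose by 0.55, 0.85 and 0.89 (edgeR adjusted p = 1.8e-06, 6.0e-05 and 0.00078), and the evening gene TOC1 was at 0.01 (edgeR adjusted p = 0.9). The replicates of PRR5 overlapped between the groups. PRR9, not past the threshold, was at −0.40 (edgeR adjusted p = 0.055). The samples come from 1 time point, so a shift in phase and a change in level cannot be told apart.

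Iron uptake genes were lower in hy5-215. IRT1, the root iron transporter, stood at 10.5, 11.1 and 2.72 CPM against 76.6, 38.9 and 74.1 (log2 −2.95 ± 0.36, edgeR adjusted p = 2.1e-06). FRO2, the ferric chelate reductase, stood at 8.02, 8.12 and 2.59 CPM against 48.8, 21.9 and 38.9 (log2 −2.54 ± 0.33, edgeR adjusted p = 3.6e-06). The groups are separate for both, with hy5-215 replicate 3 and vil1-1 replicate 2 the lowest of their groups in each. FRU, the bHLH factor that switches these genes on, also called FIT, fell by 1.03, its partners BHLH38, BHLH39 and BHLH101 by 1.06, 0.59 and 1.05, and NAS4, a nicotianamine synthase, by 1.13 (edgeR adjusted p = 2.8e-08, 0.0035, 0.0062, 0.0011 and 2.7e-05). FER1, a ferritin that stores iron, rose, at 105, 99.6 and 121 CPM against 45.8, 54.0 and 37.1 (log2 1.25 ± 0.12, edgeR adjusted p = 3.1e-08). CYP82C4, a cytochrome P450 of the coumarins secreted for iron uptake, fell by 2.55 (edgeR adjusted p = 0.0011), but with only the 6 libraries compared in the fit its adjusted p was 0.11.

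NIA2, a nitrate reductase gene known as a HY5 target, stood at 2043, 2214 and 2712 CPM against 3986, 4210 and 3950 (log2 −0.80 ± 0.07, edgeR adjusted p = 4.7e-11). Its groups do not overlap, and its paralog NIA1 was at −0.17 (edgeR adjusted p = 0.19). NRT2.1, a high-affinity nitrate transporter, was read at 0.688 ± 0.232 CPM in hy5-215 and 0.0244 ± 0.0211 in vil1-1, a count ratio of 29.7 (95% exact interval 7.8 to 251). Over the nitrate and iron list 8 of 15 members were lower and 2 higher, against 19% and 20.8% of all genes, with a median of −0.80. Of 10 root markers 2 were lower and 1 higher (30%, against 39.8% of all genes), with a median of −0.19. Their summed level was 2692 to 2760 CPM in hy5-215, 2670 to 2786 in vil1-1 and 2569 to 2803 in Col-0, but nearly all of it is PYK10, at 2569 ± 27.6 against 2551 ± 71.1 CPM, so the sum says little of the other markers. COBL9 and TIP2;3 were the lower members, by 0.86 and 0.40, and SHR the higher, by 0.31 (edgeR adjusted p = 0.015, 0.042 and 0.025), and each of the 3 lost its call when some libraries were left out.

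A myrosinase gene marked the vil1-1 side. BGLU34, a thioglucosidase that cleaves glucosinolates, stood at 21.6, 22.8 and 22.8 CPM in hy5-215 and at 2.30, 2.30 and 3.64 in vil1-1, with Col-0 at 38.3 ± 2.15 (log2 3.02 ± 0.14, edgeR adjusted p = 3.5e-19). Its relative BGLU35 fell by 0.99, at 21.9 ± 1.74 against 43.5 ± 4.64 CPM (edgeR adjusted p = 4.1e-10), and reads could be divided between similar copies in the counting. TGG1, the main leaf myrosinase, rose by 0.37, and CYP83A1, an enzyme of aliphatic glucosinolate synthesis, by 1.32 (edgeR adjusted p = 0.00018 and 0.026), the latter with overlapping replicates; its call was lost with only the 6 libraries compared (edgeR adjusted p = 0.1) and without hy5-215 replicate 2 (log2 0.88, edgeR adjusted p = 0.16), vil1-1 replicate 1 or vil1-1 replicate 2 (edgeR adjusted p = 0.061 and 0.11). CYP83A1 was below Col-0 in both mutants, at 2.48 ± 1.33, 0.968 ± 0.590 and 6.78 ± 0.928 CPM. With 6 higher and 2 lower of 27, the share of the list called was 29.6%, less than over all genes; without hy5-215 replicate 2 the counts were 2 and 4, and without vil1-1 replicate 2, 2 members were higher.

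Among cold and drought genes, RD29A stood at 35.4, 40.7 and 27.1 CPM against 10.4, 9.17 and 9.09 (log2 1.85 ± 0.17, edgeR adjusted p = 2.7e-08), and the dehydrins ERD10 and COR47 rose by 0.65 and 0.42 (edgeR adjusted p = 2.0e-07 and 1.1e-05). The dehydrin LTI30 and the small protein KIN2 fell by 0.84 and 0.74 (edgeR adjusted p = 8.7e-10 and 6.2e-05). In all 4 of 12 were higher and 2 lower (50%, near the 39.8% of all genes), with a median of 0.39; CBF1, an activator of cold genes, counts among the higher on few reads (count ratio 8.14, 95% exact interval 1.87 to 73.8), a call lost without vil1-1 replicate 1 or 2 or hy5-215 replicate 1 or 2 (edgeR adjusted p = 0.11, 0.11, 0.055 and 0.27). Of the 9 night and low-energy genes 3 were higher, the trehalose phosphate synthase-like genes TPS11, TPS5 and TPS8 by 0.62, 0.30 and 0.18 (edgeR adjusted p = 4.5e-09, 0.0045 and 0.022), which is 33.3% of the list against 39.8% of all genes, and the list's median was 0.17. The TPS8 call was lost without vil1-1 replicate 3 or hy5-215 replicate 2 (edgeR adjusted p = 0.11 and 0.076). Defence genes had 2 of 10 lower, NPR1 and WRKY70, by 0.22 and 0.44 (edgeR adjusted p = 0.017 and 0.05), both lost in several of the other fits, and this 20% is below the 39.8% of all genes; PR1 and PR2 had too few reads.

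QQS, an orphan gene of Arabidopsis that affects starch content, stood far above Col-0 in both mutants and more so in vil1-1. It was read at 11.3, 6.53 and 9.50 CPM in hy5-215, at 33.7, 33.5 and 31.1 in vil1-1 and at 0.382 ± 0.146 in Col-0. The 3 groups do not overlap, and the log2 change between the mutants was −1.83 ± 0.13 (edgeR adjusted p = 1.9e-12). BSU1, a brassinosteroid phosphatase gene, was low in both, at 0.417 ± 0.0432 and 0.634 ± 0.142 CPM, against 12 ± 0.925 in Col-0, and did not pass the test between them (log2 −0.60, edgeR adjusted p = 0.2). Of its relatives, BSL2 was at 0.12 (edgeR adjusted p = 0.05), a call lost in 10 of the other fits, among them each of the 6 that leave out a library, and BSL1 and BSL3 were at 0.08 and 0.02 (edgeR adjusted p = 0.27 and 0.83).

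Most seed-type transcripts were more abundant in hy5-215 than in vil1-1. CRA1, a cruciferin storage protein, stood at 79.1, 97.9 and 81.7 CPM in hy5-215, at 14.9, 5.38 and 13.3 in vil1-1 and at 0.434 ± 0.402 in Col-0 (log2 2.94 ± 0.32, edgeR adjusted p = 5.0e-07). ICL, isocitrate lyase of seed oil use, stood at 1550, 758 and 1200 CPM against 396, 399 and 375, with Col-0 at 87.8 ± 14.4 (log2 1.58 ± 0.23, edgeR adjusted p = 1.6e-05), and MLS, malate synthase of the same cycle, rose by 1.12 (edgeR adjusted p = 0.0012). The groups do not overlap in CRA1 or ICL, and hy5-215 replicate 2 was the lowest of its group for ICL. All 11 tested members were called, against 39.8% of all genes, 10 of them higher and 1 lower. SESA2 and SESA3 among the higher passed the filter only through hy5-215, and without them the counts were 8 and 1. The list's summed level was 1016 to 1951 CPM in hy5-215, 646 to 678 in vil1-1 and 130 to 201 in Col-0; SESA4 was at 0 in vil1-1, and ICL makes up most of the sum. In vil1-1 against Col-0, 6 of the 11 tested members were higher and the other 5, CRC, OLE2, EM6, SESA2 and SESA3, did not pass the test. The member that was lower in hy5-215 than in vil1-1 was M17, a late embryogenesis gene, at 17.7, 28.0 and 30.8 CPM against 183, 162 and 176 (log2 −2.78 ± 0.27, edgeR adjusted p = 1.1e-07).

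Cell cycle genes were higher in 7 of 8 cases, against 20.8% of all genes, with a median of 0.59. Their summed level was 74.9 to 83.0 CPM in hy5-215, 45.8 to 54.9 in vil1-1 and 60.2 to 66.0 in Col-0. The mitotic kinases CDKB2;1 and CDKB1;1 rose by 0.88 and 0.79, the cyclin CYCB1;2 by 0.72, and the replication factor MCM5 by 0.43 (edgeR adjusted p = 8.5e-11, 0.0008, 0.00018 and 0.00031). Of 5 stomatal lineage genes 0 were called by edgeR and 0 by DESeq2, with 1 of them under an unadjusted p of 0.05 by each; their median was 0.41 and their summed level 30.9 to 31.4 CPM in hy5-215 against 28.5 to 30.1 in vil1-1. The part that a different share of seed, dividing or green cells has in the other lists was not tested.

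Col-0 was set beside both mutants to describe on which side each difference lay. A batch of the hy5-215 libraries and the genotype cannot be told apart, so the side does not say what moved a gene. For each gene called and at least 2-fold apart, the mean of Col-0 on the log2(CPM + 0.5) scale was set against the means of the mutants. Col-0 lay nearer to vil1-1 for 1269 of the 1605 genes (79.1%) and nearer to hy5-215 for 336 (20.9%). It lay between the mutants for 1113, beyond vil1-1 for 415 and beyond hy5-215 for 77. Genes that passed the filter only through hy5-215 favour the vil1-1 side by that choice. Without them Col-0 lay nearer to vil1-1 for 942 of 1274 genes (73.9%) and nearer to hy5-215 for 332 (26.1%). It then lay between the mutants for 856, beyond vil1-1 for 341 and beyond hy5-215 for 77. Of the genes higher in hy5-215, 85.1% had Col-0 nearer to vil1-1, or 78.4% of the 682 that passed the filter without hy5-215. For the genes lower in hy5-215 the share was 68.8%. Against Col-0 itself 8369 genes (39% of those tested) were called in hy5-215 and 2139 (9.97%) in vil1-1; these contrasts share the Col-0 libraries. By gene, HYH, CHS, MYB12, IRT1, LHCB3 and YUC8 passed the test against Col-0 in hy5-215 but not in vil1-1, while SNZ, BGLU34, EMF1 and M17 lay farther from Col-0 in vil1-1 than in hy5-215, and FLC, SOC1 and COR27 lay on opposite sides of Col-0.

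**Figure D4:**
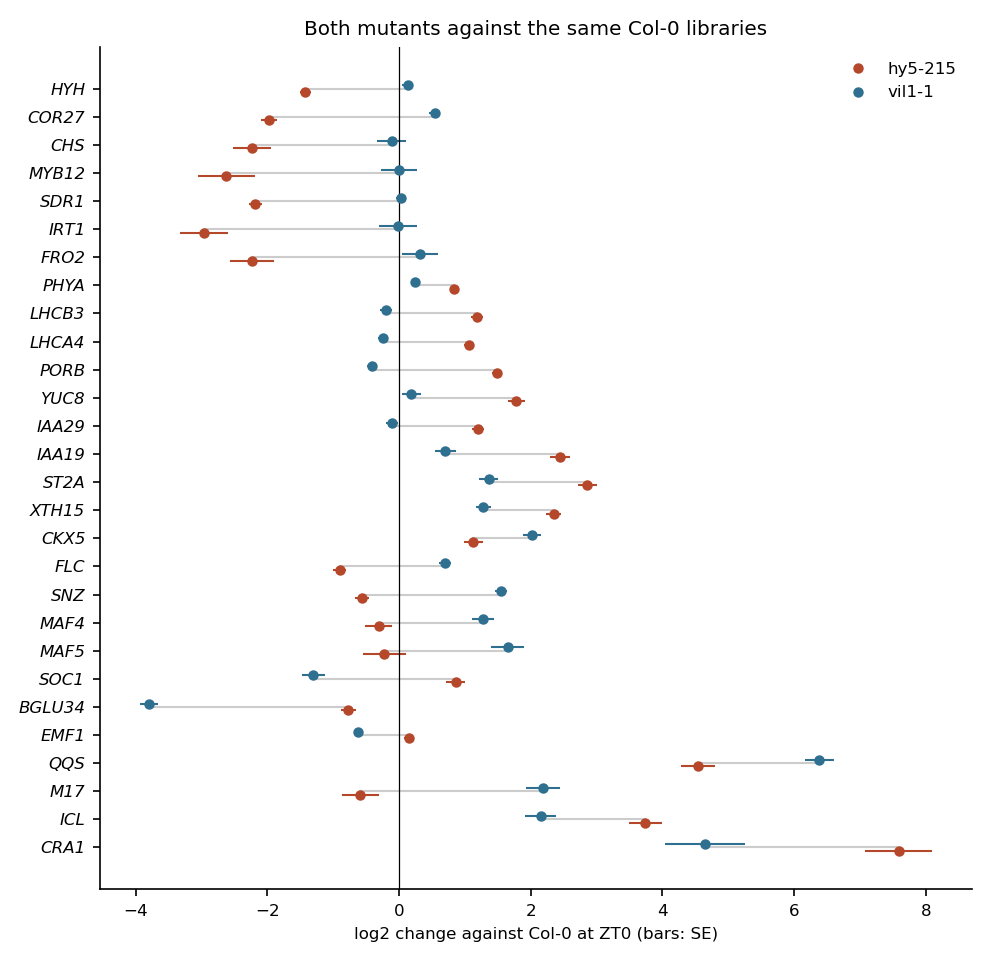
Log2 change of 28 genes against Col-0 at ZT0 in hy5-215 and in vil1-1, with bars for the SE and a grey line for the distance between the mutants; both use the same Col-0 libraries. HYH, CHS and IRT1 have vil1-1 at 0.13, −0.11 and −0.01, SNZ and BGLU34 have it at 1.55 and −3.80, and QQS, ICL and CRA1 lie above 0 in both.

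Contrasts made from other libraries show which of these differences recur where VIL1 or COP1 is mutant and no hy5-215 or vil1-1 ZT0 library enters. In vil1-1 against Col-0 at ZT6, 4500 genes (21%) were called, and in the vil1-1 cop1-4 line against cop1-4 at ZT0, 3723 (17.4%). Of the 592 genes at least 2-fold lower in hy5-215 than in vil1-1, 182 (30.7%) were called higher in vil1-1 at ZT6, where 10.4% of all genes were, and 40 (6.76%) lower; the 182 are 8.19% of all genes called higher there. In the vil1-1 cop1-4 contrast 198 of the 592 (33.4%) were higher, against 9.36% of all genes, and 26 (4.39%) lower; the 198 are 9.86% of the genes called higher there. Of the 682 genes at least 2-fold higher in hy5-215 that passed the filter without it, 158 (23.2%) were lower in vil1-1 at ZT6, where 10.6% of all genes were, and 66 (9.68%) higher; the 158 are 6.94% of the genes called lower there. In the vil1-1 cop1-4 contrast, 81 of them (11.9%) were higher and 75 (11%) lower, against 9.36 and 8% of all genes; they are 4.03 and 4.37% of the genes called.

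By gene, SNZ rose by 1.53 in vil1-1 at ZT6 and by 1.21 in the vil1-1 cop1-4 contrast (edgeR adjusted p = 2.7e-15 and 6.4e-11). SOC1 fell by 1.11 and 1.15, EMF1 by 0.65 and 0.70, and BGLU34 by 3.66 and 3.81 (edgeR adjusted p from 7.8e-20 for BGLU34 to 5.3e-08 for EMF1 at ZT6, and from 4.7e-18 to 3.2e-09 in the other contrast). M17 rose by 2.73 and 4.08 (edgeR adjusted p = 6.9e-07 and 2.4e-07). FLC rose by 0.88 at ZT6 (edgeR adjusted p = 3.0e-09) but was at 0.06 in the vil1-1 cop1-4 contrast (edgeR adjusted p = 0.72), and MAF4 did likewise, with 1.51 and 0.25 (edgeR adjusted p = 2.4e-08 and 0.26). MAF5 rose in both contrasts, by 2.66 and 0.91 (edgeR adjusted p = 9.1e-11 and 0.012). HYH passed the test in neither contrast, with 0.11 and −0.09 (edgeR adjusted p = 0.6 and 0.41). For CHS the vil1-1 cop1-4 line stood higher than cop1-4, by 0.53 (edgeR adjusted p = 0.017). Its ZT6 value of −0.32 did not pass (edgeR adjusted p = 0.14).

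In cop1-4, where HY5 protein is known to be more stable, 14699 genes (68.5%) differed from Col-0 at ZT0. CHS rose there by 4.27, HYH by 1.11, COR27 by 1.00 and MYB12 by 1.82 (edgeR adjusted p = 4.9e-14, 4.8e-17, 5.2e-10 and 7.1e-09), opposite to their change in hy5-215. IAA29, YUC8, IAA19 and PORB, higher in hy5-215, had log2 changes of −4.42, −1.82, −2.68 and −2.66 (edgeR adjusted p = 5.6e-28, 4.7e-12, 5.7e-12 and 9.0e-23). IRT1 and FRO2, however, fell in cop1-4 too, by 8.77 and 5.27 (edgeR adjusted p = 2.4e-09 and 1.8e-08). Of the 682 higher genes, 370 (54.3%) were lower and 103 (15.1%) higher in cop1-4, against 33.9 and 34.7% of all genes; they are 5.09 and 1.39% of the genes called there. Of the 592 lower genes, 242 (40.9%) were lower and 164 (27.7%) higher, or 3.33 and 2.21% of the genes called.

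**Figure D5:**
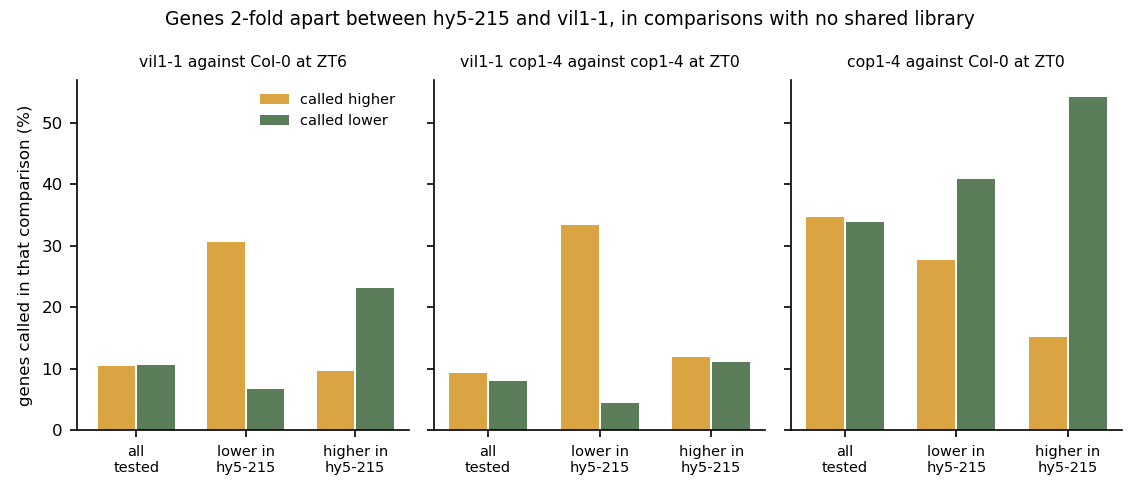
Share of genes called higher or lower in 3 contrasts that hold no library of the direct comparison, for all genes tested, for the 592 genes at least 2-fold lower in hy5-215 and for the 682 at least 2-fold higher that passed the filter without hy5-215. The lower genes are called higher in vil1-1 at ZT6 (30.7%) and in the vil1-1 cop1-4 line (33.4%), where 10.4 and 9.36% of all genes are, and the higher genes are called lower in cop1-4 at 54.3% against 33.9%.

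The ACGT-containing elements were counted in windows of 300 bases, 250 before to 50 after the start, on both strands, for the 21411 tested genes with a RefSeq window. The G-box (CACGTG) was present in 1871 of all windows (8.74%), in 449 of those of the 4445 genes higher in hy5-215 and in 335 of those of the 4074 lower (8.22%). The Z-box (CACGTA, or TACGTG on the other strand) was present in 8.03, 8.77 and 8.93%, the C-box (GACGTC) in 3.06, 3.08 and 2.70%, and the hybrid of G-box and C-box (CACGTC) in 7.51, 8.21 and 7.14%; the G-box and C-box read the same on both strands, and these motifs share the letters ACGT, but no run of letters is a match to more than 1 of them. The RY element of seed promoters (CATGCA) was present in 8.93% of all windows, in 15.7% of the 591 at least 2-fold lower and in 15.5% of the 1007 at least 2-fold higher, or 17.1% of the 679 that passed the filter without hy5-215. Among genes called at any fold, RY was present in 10.2% of the higher and 9.4% of the lower. The telobox (AAACCCTA) was present in 5.60% of all windows. Among genes called at any fold, it was in 4.52% of the higher and in 6.68% of the lower. At 2-fold or more the order was reversed, with 7.15% of the higher and 4.57% of the lower, but 3.98% of the 679. The G-box was in 8.84% of the windows at least 2-fold higher, 10.2% of the 679 and 8.12% of those at least 2-fold lower. Among the lists, a G-box was present in 12 of 26 clock windows (46.2%), 4 of 11 seed windows (36.4%), 6 of 19 photosynthesis windows (31.6%) and 6 of 21 flavonoid windows (28.6%). It was present in 2 of 31 PIF and shade windows (6.45%), 1 of 18 Polycomb windows (5.56%), 1 of 19 flowering windows (5.26%) and 0 of the 10 root and 8 cell cycle windows. Such a match is a description of the sequence and not of binding. LHCA4 and IAA19, higher in hy5-215, and CHS, lower, each hold the same G-box letters in the sequences printed above.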

How the data were processed

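RNA-seq libraries of 1 µg total RNA from whole seedlings were made with a directional NEBNext kit, per the labels' protocols. The deposited files hold raw read counts per gene; the submitters' processing notes name FastQC, STAR, edgeR and TAIR10 without versions, and the strand setting of the counting is not known here. The 5 lines of each file that name no gene (reads outside genes, ambiguous or at several sites, and the like) were kept out of library sizes and tests; in hy5-215, vil1-1 and Col-0 at ZT0, 90.8 to 95.3% of reads lay in genes.

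All 27 libraries, in 9 groups of 3, entered 1 fit in R 4.3.3 with edgeR 4.0.16 (limma 3.58.1): genes were filtered by filterByExpr over the groups, scaled by TMM, fitted by the robust quasi-likelihood model with no block, and adjusted by Benjamini-Hochberg over all 21448 genes tested, at a threshold of 0.05. CPM use TMM-scaled library sizes and are given as mean ± SD, n = 3; an SE is the log2 change over the square root of F. Count ratios carry exact 95% intervals, and a group at 0 is set to a floor of 3 reads over the group; both cover counting error only. Python 3.11.15 (pandas 2.3.3, scipy 1.17.1, matplotlib 3.10.9) made the summaries and figures. Symbols came from RefSeq, in which 31900 of 32678 identifiers matched; AT4G03060 was not analysed here.

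The text names HY5, VIL1 and COP1; the 10 that rose most and the 10 that fell most, by log2 change, of called genes that have a symbol, average 5 CPM or more and show no overlap between replicates; and up to 4 called members on each side of each of 18 lists, by p, beside uncalled members with their values. The further called members GLK1, GLK2, ELIP2, CRY2, SPA3, SPA4, PIF1, PIF4, PIL1, XTH15, ST2A, FLS1, RCA, LHCB2.1, LHCB3, SPL3, LHY, CCA1, LNK2, BHLH38, BHLH39, BHLH101, NAS4, ZTL, LKP2, CHE, SESA2, SESA3 and MLS were chosen after their values were seen. The comparison, the lists and their members were chosen with earlier results of these data known. Same-numbered replicates of hy5-215 and vil1-1 deviated from their group means with correlations of −0.0171, 0.0194 and −0.0415, so the numbers were not taken to pair samples. Replicates differed by more than sampling noise (chi-square per degree of freedom 2.32 to 6.35). The alternatives, 14 fits in all, were other size factors, DESeq2 1.42.0, no filter, fewer libraries, protein-coding genes that overlap no other gene, a replicate block, each of the 6 libraries left out, and a filter on the 24 libraries other than hy5-215, added after seeing the data.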

Additional observations from a re-analysis of the deposited data

Results flagged for a closer look

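Outside the gene counts, the hy5-215 libraries held more reads that no comparison uses. Reads outside genes made up 2.49 ± 0.369% (SD, n = 3) in hy5-215 against 0.932 ± 0.078% in vil1-1 and 1.05 ± 0.0705% in Col-0, and each of the 24 libraries other than hy5-215 lay between 0.586 and 1.12%. The share of reads aligned to several sites was 4.79 ± 0.569% in hy5-215 against 2.95 ± 0.0929% in vil1-1 and 3.38 ± 0.183% in Col-0; of the 24 other libraries the highest was 4.35% and the lowest hy5-215 library 4.32%, so those ranges meet. Both stand above the wild type level. The genotype and a batch of these 3 libraries cannot be told apart.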

How the results depend on the processing

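With 1 of the 6 libraries left out, 3815 to 4081 genes were higher, 3378 to 3854 lower and 1582 to 1664 at least 2-fold apart, and Col-0 lay nearer to vil1-1 for 79.1 to 80.5% of the latter (74 to 80.5% under the other settings). The replicate block gave 4394 higher, 4045 lower and 1600 at least 2-fold apart, and ended the calls of WRKY70, TIP2;3 and BSL2 among named genes (edgeR adjusted p = 0.05, 0.054 and 0.052) and no other; since the numbers do not pair the samples, this is no sign of a weaker effect. Among protein-coding genes that overlap no other gene the number at least 2-fold apart was 1029, with 14278 genes tested in place of 21448. DESeq2 gave 4188 higher and 4055 lower, and the filter on the 24 other libraries, added after seeing the data, 4147 and 4021, with 1271 at least 2-fold apart. Of 1439 values of named genes under these settings, 62 in 14 genes lost the call and 0 reversed; the genes were CYP82C4, C4H, CRY1, SWN, CYP83A1, SOT18, CBF1, TPS8, NPR1, WRKY70, SHR, COBL9, TIP2;3 and BSL2. The cause was not tested. At 3 libraries a group, genes of a few reads, such as CBF1 and DFR, have wide intervals.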

Other observations

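The genes in this section were chosen after their values were seen. MIR163 (AT1G66725), the gene of a microRNA known to target methyltransferase transcripts, stood at 1.04, 0.747 and 1.3 CPM in hy5-215 and at 6.16, 7.65 and 5.45 in vil1-1, with Col-0 at 5.56 ± 0.227 (log2 −2.63 ± 0.18, edgeR adjusted p = 4.0e-16). PXMT1 (AT1G66700), a methyltransferase gene and a known target of that microRNA, stood at 26, 27.6 and 27.5 CPM against 4.43, 4.49 and 7.9, with Col-0 at 10.9 ± 0.373 (log2 2.27 ± 0.16, edgeR adjusted p = 1.8e-13). The groups do not overlap in either gene, and the genes moved in opposite directions; in cop1-4 against Col-0 their log2 changes were 1.61 and −2.35 (edgeR adjusted p = 2.6e-15 and 3.8e-12). The RefSeq mature sequence (TAIR10.1, chr1:24884359-24884382, plus strand, seed in capitals) and the best matching window of the PXMT1 coding sequence (chr1:24874307-24874330, minus strand, 19 of 24 bases complementary, in capitals) are printed because they pair.
miR163: uUGAAGAGgacuuggaacuucgau
PXMT1 window: catcgAGTTCCAAGTCCTCTTCAA

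Major light-harvesting genes outside the photosynthesis list were higher in hy5-215 too. LHB1B1 stood at 6300, 6231 and 5817 CPM against 1215, 1138 and 1217 (log2 2.36 ± 0.10, edgeR adjusted p = 1.5e-14), with no overlap. CAB3, CAB1 and LHB1B2 rose by 1.48, 1.12 and 1.12 (edgeR adjusted p = 3.7e-09, 1.1e-16 and 1.6e-17); these genes are near-identical copies. The DNA repair genes PHR1 (AT1G12370, a photolyase), UVR3 and DDB2 fell by 1.69, 0.92 and 1.25 (edgeR adjusted p = 1.5e-10, 2.4e-06 and 5.5e-12), and each was within the test's error of Col-0 in vil1-1 (−0.06, −0.06 and −0.03, edgeR adjusted p = 0.89, 0.85 and 0.93). GH3.3, which conjugates auxin, and the cell-wall expansin EXPA4 rose by 2.36 and 1.92 (edgeR adjusted p = 1.1e-16 and 1.7e-19), the xyloglucan enzymes XTH17 and XTH19 by 1.67 and 1.13, and GASA4, a gibberellin-regulated gene, by 1.76 (edgeR adjusted p = 2.2e-09, 9.8e-11 and 5.4e-20). PHR1, LHB1B2 and CAB1 overlap another annotated gene on the other strand, so their reads cannot be told apart from its reads where strand was not used.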
